A study of Mus musculus with 9 samples.

Results

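The 8 genes described here mark glutamatergic neurons of the midbrain and the transcription factors of the red nucleus and neighbouring areas. They are the vesicular glutamate transporters *Slc17a6*, *Slc17a7* and *Slc17a8*, and the transcription factor genes *Pou4f1*, *Pou4f2*, *Barhl1*, *Tfap2b* and *Lhx9*. They were chosen by name, and all 8 were found among the 51912 genes of the table through their Ensembl identifiers in the GRCm38 annotation. RNA sequencing was performed on micro-dissected E14.5 midbrains of C57Bl/6 mice, with 3 libraries of each genotype, wild type (*Nkx2.9*+/+), heterozygous (*Nkx2.9*LacZ/+) and homozygous for the knock-in (*Nkx2.9*LacZ/LacZ), and a pair of midbrains was pooled for each library. In the knock-in allele LacZ replaces the first exon, so that heterozygous embryos keep an intact *Nkx2.9* copy and homozygous embryos keep none. The allele is germline and not restricted to a cell type, and the dissected tissue holds all cell types of the midbrain. No treatment was given. The comparisons ask whether the glutamatergic genes differ with the number of intact *Nkx2.9* copies. Each column of the table gives the genotype of a library without its replicate number. Libraries are therefore referred to by column (1 to 3 for LacZ/LacZ, 4 to 6 for LacZ/+ and 7 to 9 for +/+, each written below without the name of the gene).

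Glutamatergic neurons load glutamate into synaptic vesicles with a vesicular glutamate transporter, and the transporter a neuron uses depends on its position. *Slc17a6* (VGLUT2) is the main transporter of the midbrain, thalamus and brainstem, *Slc17a7* (VGLUT1) is that of the cortex, hippocampus and cerebellum, and *Slc17a8* (VGLUT3) is found in scattered neurons that often release a second transmitter, serotonergic neurons of the raphe among them. The red nucleus is a motor nucleus of the ventral midbrain whose neurons express *Pou4f1* (BRN3A), a POU-homeodomain factor. In GRCm38, *Slc17a6* lies at chr7:51622006-51671119 (plus strand), *Slc17a7* at chr7:45163949-45176142 (plus), *Slc17a8* at chr10:89574020-89621253 (minus) and *Pou4f1* at chr14:104461676-104467999 (minus). *Pou4f2* lies at chr8:78433010-78436645 (minus), *Barhl1* at chr2:28907679-28916668 (minus), *Tfap2b* at chr1:19208914-19238576 (plus) and *Lhx9* at chr1:138825186-138848577 (minus). All 8 are protein-coding genes, and their exons share 0 bases with exons of other annotated genes.

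Depth ranged from 1692963 to 5942192 counted reads per library with a median of 4921748, and columns 7 and 4 were the shallowest with 1692963 and 2584074 reads. The targeted gene *Nkx2-9* summed to 13 reads over columns 1 to 3, 11 over columns 4 to 6 and 4 over columns 7 to 9, which goes against the direction of the labels. The count covers exons outside the replaced one and therefore checks the allele only in part. All directions below are between libraries as labelled. Whether the columns labelled LacZ/LacZ and +/+ were exchanged was not tested, and an exchange would turn the sign of every LacZ/LacZ against +/+ value below and swap the comparisons of these groups with the LacZ/+ libraries. Midbrain markers were present in every library (*En1*, *En2*, *Otx2*, *Pax7* and *Pax5*). *Atoh1* of the rhombic lip and the eye field genes *Rax* and *Six6* were at 0 in all 9 libraries. Column 4 stood apart. Its summed thalamic and pretectal markers were at 2702 normalized counts against 3673 to 4676 in the other libraries. Its pan-neuronal markers were at 26403 against 28853 to 33093, and its midbrain markers at 3176 against 2048 to 2710. Single genes of the last 2 lists did not all follow their sum. *En1*, *En2*, *Pax5* and *Meis2* were highest in column 4, *Otx2* (205) and *Pax3* (24.4) lowest, and *Pax7* between. *Tubb3* was highest there (6810.5) and *Elavl3* high (2824), and the other pan-neuronal genes were lowest. The LacZ/LacZ libraries all had high *Xist* (4607 to 5182 normalized counts), and 4 Y-linked genes summed to 0 to 2.26 in them. Columns 4, 5, 8 and 9 had Y-linked sums of 505 to 1075, so the sex of the pooled embryos was not balanced over the genotypes.

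The levels of the 8 genes were first set in order per length, as reads per kilobase of annotated exon scaled to the total of counted reads (RPKM). *Tfap2b*, an AP-2 family factor, was highest at 68.3 ± 12.4 RPKM (SD, n = 9), above 97.7% of the genes tested. *Slc17a6* followed at 34.4 ± 3.81 RPKM. *Lhx9*, a LIM-homeodomain factor of the dorsal midbrain and thalamus, was at 19.9 ± 1.86 RPKM, *Barhl1*, a BarH-like homeodomain factor, at 15.6 ± 2.21 RPKM, *Pou4f1* at 14.8 ± 2.83 RPKM and its relative *Pou4f2* (BRN3B) at 10.3 ± 2.42 RPKM. *Slc17a8* was at 1.69 ± 0.822 RPKM and *Slc17a7* at 0.0376 ± 0.0359 RPKM. *Tfap2b* was above *Slc17a6*, and *Slc17a6* above *Lhx9*, in all 9 libraries without overlap of their ranges. The neighbours *Lhx9* and *Barhl1*, *Barhl1* and *Pou4f1*, and *Pou4f1* and *Pou4f2* had overlapping ranges. *Barhl1* was above *Pou4f1* in 4 of 9 libraries only, whereas *Pou4f1* was above *Pou4f2* in 9 of 9.

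**Figure D1:**
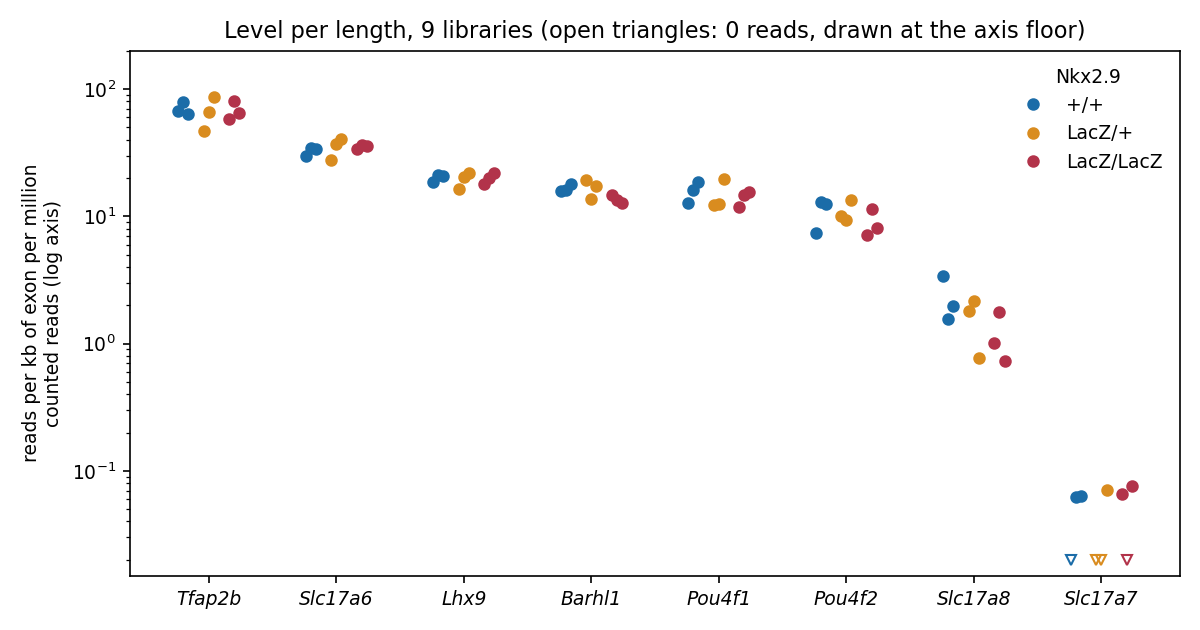
Level per length of the 8 genes in RPKM on a log axis, with a point per library coloured by *Nkx2.9* genotype and open triangles for libraries with 0 reads. *Tfap2b* and *Slc17a6* lie at the top (means of 68.3 and 34.4), *Slc17a8* lies at 1.69, and *Slc17a7* has 0 reads in 4 of 9 libraries.

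Nearly all vesicular glutamate transporter RNA of the E14.5 midbrain was *Slc17a6*. Per length, *Slc17a6* made up 89.7 to 97.97% of the summed level of the 3 transporters over the libraries (median 95.3%), *Slc17a8* 1.86 to 10.3% (median 4.70%) and *Slc17a7* 0 to 0.205%. *Slc17a7* had 10 reads in all, 2 in each of columns 1, 3, 6, 8 and 9 and 0 in the other 4, which leaves it under the minimum for testing. A count of 0 in a library allows up to 3 reads, so differences of *Slc17a7* between genotypes were not detectable at this depth. These floors cover counting error only. Annotated exon lengths are those of the full gene models, and a share per length would change if shorter isoforms were used.

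*Slc17a7* aside, the genes passed the minimum (a mean of at least 5 normalized counts), and these 7 were compared between the genotypes with limma on log2(normalized count + 1) (normalized counts are the read counts divided by a size factor for each library). None of the 7 differed between any pair of genotypes after Benjamini-Hochberg adjustment over the 16993 genes tested, and 0 genes of the whole table did in limma, with 441, 473 and 449 genes at an unadjusted p under 0.05 in the 3 comparisons. With each library left out in turn these counts ran from 283 (without column 2) to 835 (without column 8), from 376 (column 2) to 936 (column 4) and from 293 (column 2) to 741 (column 5). Between LacZ/LacZ and +/+ libraries, 1 of the 7 (*Slc17a8*) had an unadjusted p under 0.05, where 2.6% of all genes did. In that comparison 1 of the 7 (*Barhl1*) had groups that did not overlap, where 9.52% of all genes did. Between LacZ/+ and +/+ libraries these counts were 0 of 7 (2.78% of all genes) and 0 of 7 (6.91%), and between the LacZ/LacZ libraries and the LacZ/+ libraries 0 of 7 (2.64%) and 0 of 7 (8.71%). The log2 fold change was below 0 for 6 of the 7 genes in LacZ/LacZ against +/+ libraries (47.7% of all genes), with a median of -0.18 against 0.01 over all genes. It was below 0 for 5 of the 7 in LacZ/+ against +/+ libraries (51.4% of all genes), with a median of -0.07 against -0.01, and for 4 of the 7 in LacZ/LacZ against LacZ/+ libraries (46.9% of all genes), with a median of -0.06 against 0.02. The comparisons share libraries and are not independent of each other. In bulk tissue, fewer cells of a type and less RNA per cell cannot be told apart.

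**Figure D2:**
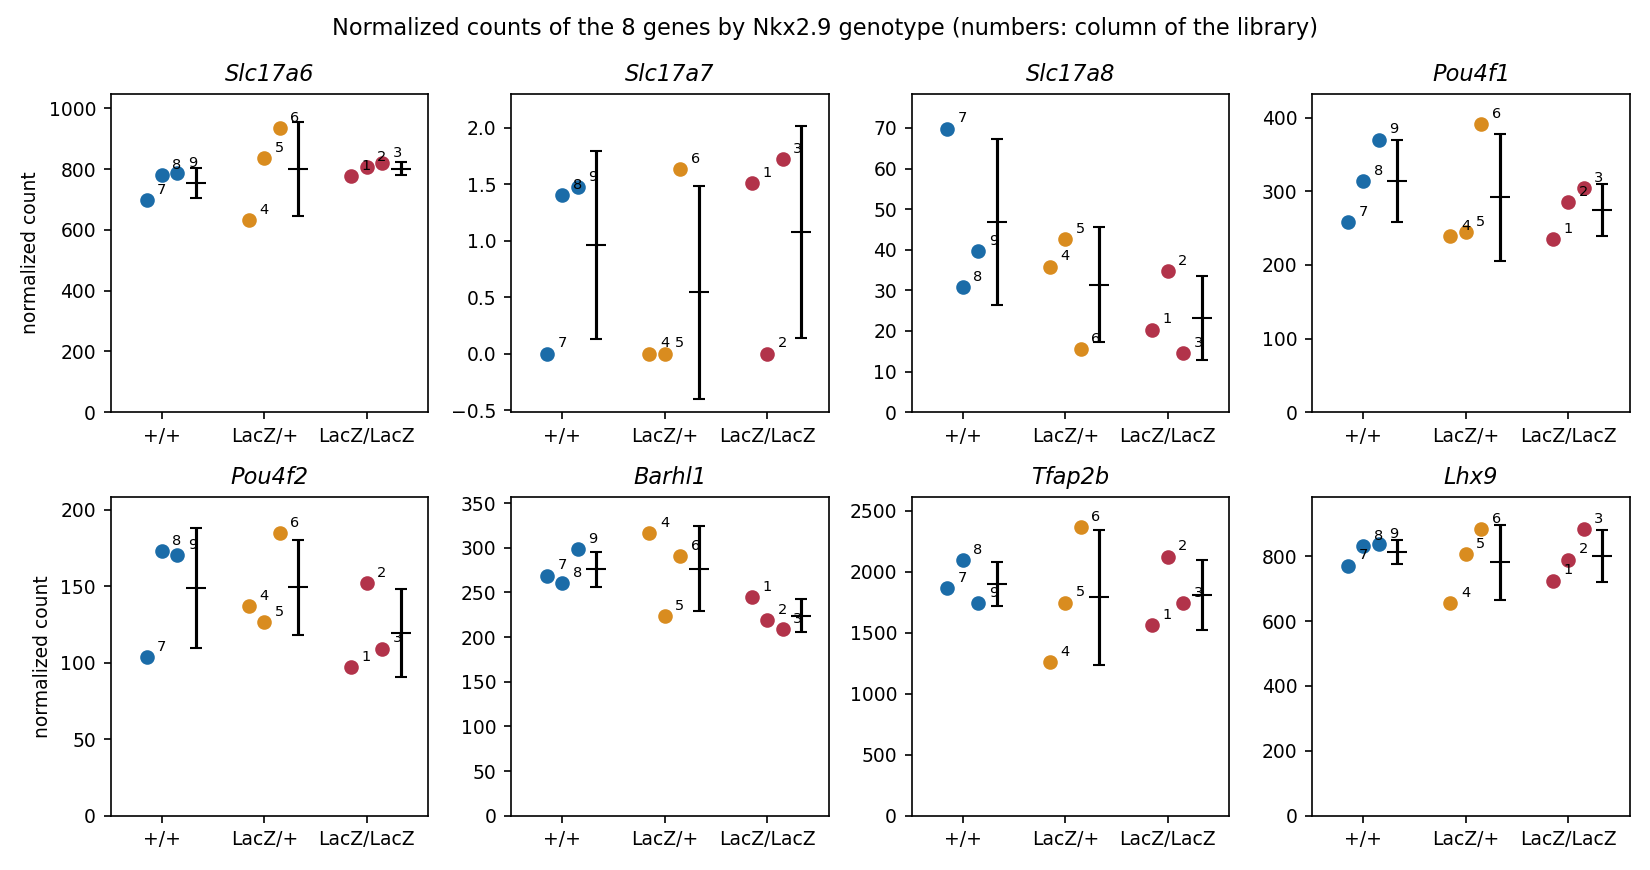
Normalized counts of the 8 genes (y axes, each from 0 except for *Slc17a7*, whose error bars pass below 0), with a point per library numbered by column, grouped by *Nkx2.9* genotype, and the mean ± SD of 3 libraries as a bar. The *Slc17a8* points of the LacZ/LacZ libraries (14.6 to 34.8) overlap those of the +/+ libraries (30.9 to 69.8), and those of *Barhl1* (209 to 245 against 260 to 298) do not.

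Of the transporters, *Slc17a6* did not differ beyond the spread between libraries. Its normalized counts were 778, 807 and 820 in the LacZ/LacZ libraries, 632, 837 and 934 in the LacZ/+ libraries and 698, 781 and 786 in the +/+ libraries. The LacZ/+ libraries held both the lowest (column 4) and the highest (column 6) value, and all groups overlapped. The log2 fold change of LacZ/LacZ over +/+ libraries was 0.09 with a standard error of 0.14 (limma, unadjusted p = 0.529), and its 95% interval of -0.20 to 0.38 is a ratio of 0.870 to 1.30. For LacZ/+ over +/+ libraries it was 0.07 (interval -0.22 to 0.36), and without column 4, which had the lowest value, it was 0.23 (limma, unadjusted p = 0.0384).

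*Slc17a8* had the widest spread of the 7 genes, and its mean was lowest in the LacZ/LacZ libraries and highest in the +/+ libraries. Its normalized counts were 20.3, 34.8 and 14.6 in the LacZ/LacZ libraries, 35.9, 42.7 and 15.5 in the LacZ/+ libraries and 69.8, 30.9 and 39.7 in the +/+ libraries. The means were 23.2 ± 10.4, 31.3 ± 14.1 and 46.8 ± 20.4 (SD, n = 3). Column 2 lay above column 8, so the outer groups overlapped, and column 6 lay as low as the LacZ/LacZ libraries. LacZ/LacZ over +/+ libraries had a log2 fold change of -0.98 with a standard error of 0.41, a ratio of 0.506 with a 95% interval of 0.275 to 0.930 (limma, unadjusted p = 0.0305, adjusted p = 1.00). The exact permutation test of the same libraries gave p = 0.2, where 3 libraries against 3 cannot go below 0.1. For LacZ/+ over +/+ libraries the log2 fold change was -0.60 (limma, unadjusted p = 0.169), and for LacZ/LacZ over LacZ/+ libraries -0.39 (unadjusted p = 0.364). With each library left out in turn the first ran from -0.87 (without column 5) to -0.17 (without column 6) and the second from -0.81 (without column 6) to -0.11 (without column 3 or 5), with no unadjusted p under 0.05 in limma.

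The *Slc17a8* values rest on 17 to 54 reads per library, and counting alone gives a coefficient of variation of 18.8% beside the 50.3% seen over the 9 libraries. The highest value, in column 7, came from 27 reads in the shallowest library. Without column 7 the log2 fold change against +/+ libraries was -0.66 (limma, unadjusted p = 0.147), without column 3 it was -0.71 (unadjusted p = 0.137) and without column 1 it was -0.93 (unadjusted p = 0.0722). With log2 *Xist* as a covariate it was -0.78 (limma, unadjusted p = 0.105). The share of *Slc17a8* in the 3 transporters was 3.20 ± 1.38% in LacZ/LacZ, 4.49 ± 2.29% in LacZ/+ and 6.68 ± 3.16% in +/+ libraries (SD, n = 3), and the outer groups did not differ beyond their spread (exact permutation test, p = 0.2).

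**Figure D3:**
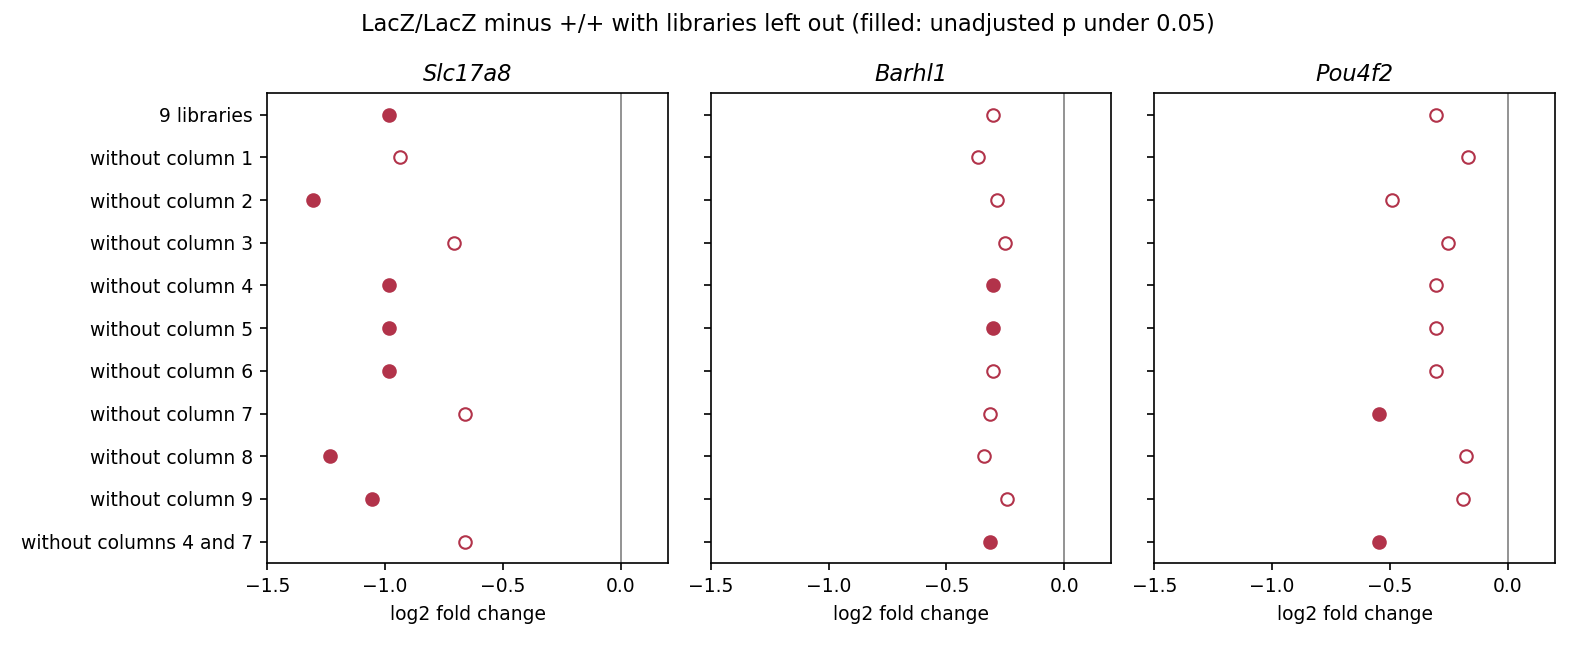
Log2 fold change of LacZ/LacZ over +/+ libraries (x axis) for *Slc17a8*, *Barhl1* and *Pou4f2* in limma with all 9 libraries and with the named columns left out (rows), filled where the unadjusted p was under 0.05. All values lie below 0, those of *Slc17a8* from -1.31 to -0.66, and its point is open without column 1, 3 or 7.

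Serotonergic markers (*Tph2*, *Fev*, *Slc6a4*, *Slc18a2* and *Htr1a*, a list made after values had been seen) were read beside *Slc17a8*. Over the 9 libraries, which share dissection and preparation, *Slc17a8* had a Pearson's r of 0.91 with *Slc6a4*, 0.72 with *Fev* and 0.68 with *Tph2*, given as descriptions. *Slc17a8* also had an r of 0.73 with *Pax7* and 0.63 with *En2*. *Barhl1* had an r of 0.81 with *Tph2*, 0.39 with *Slc6a4* and -0.25 with *Fev*. *Slc6a4*, the serotonin transporter, was at 26.3, 22.9 and 8.59 normalized counts in the LacZ/LacZ libraries, 35.9, 34.2 and 11.4 in the LacZ/+ libraries and 51.7, 27.4 and 37.5 in the +/+ libraries. Columns 3 and 6 were the lowest and column 7 the highest for both *Slc17a8* and *Slc6a4*. *Tph2*, the serotonin-synthesizing hydroxylase of neurons, was at 10.54, 9.15 and 3.44 in the LacZ/LacZ libraries, 21.2, 11.1 and 14.7 in the LacZ/+ libraries and 31.0, 16.8 and 33.9 in the +/+ libraries, so its outer groups did not overlap. *Fev*, a transcription factor of serotonergic neurons, was at 3.01, 3.66 and 5.15, at 3.26, 8.54 and 1.63 and at 10.3, 4.21 and 5.89 in these groups, lowest in column 6 and highest in column 7. *Slc18a2*, the vesicular monoamine transporter, which dopaminergic neurons also use, was highest in column 3 (155 normalized counts) and at 119 in column 7, and *Htr1a*, a serotonin receptor, was highest in column 6 (37.5) and at 18.1 in column 7, so neither had the order of *Slc17a8*. In LacZ/LacZ against +/+ libraries, as labelled, the log2 fold change lay below 0 for all 5 serotonergic genes and for 47.7% of all genes. An exchange of the columns would turn these signs. For 2 of the 5 the limma p was below 0.05 before adjustment, as it was for 2.6% of all genes. They were *Tph2* (-1.75, unadjusted p = 0.00155) and *Slc6a4* (-1.07, unadjusted p = 0.0354). Because the list was made after values had been seen, these counts and p-values describe its genes and do not test the list. The 5 markers summed to 177 to 185 normalized counts in LacZ/LacZ, 183 to 228 in LacZ/+ and 227 to 259 in +/+ libraries. Their part in the *Slc17a8* values was not tested.

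The factor that *Nkx2.9* encodes belongs to the NK2 homeodomain family, whose members bind sites such as TNAAGTG. This core and the general homeodomain core TAATTA were searched on both strands of the RefSeq promoter windows (GRCm38.p6, 250 bases before to 50 after each start site). TNAAGTG was held by 11.5% of 32851 promoter windows and by 2 of the 11 windows of the 8 genes, both of *Slc17a8*, so that 1 of the 8 genes had it. TAATTA was held by 5.29% of all windows and by 3 of the 11, in *Slc17a6*, *Slc17a8* and *Barhl1*, and overlapped no TNAAGTG match there. For neither core was the share in the 11 windows tested against that of all windows. The TNAAGTG matches in *Slc17a8*, on the minus strand of chromosome 10, are shown because this gene had the lowest unadjusted p of the 7 between LacZ/LacZ and +/+ libraries. They are given with 10 bases on each side, 5′ to 3′ on the strand of the gene, with the core in capitals.
*Slc17a8*, chr10:89621256-89621282, core on the opposite strand: gcactgagctCACTTTAgcttctcccg
*Slc17a8*, chr10:89599962-89599988, core on the strand of the gene: ttgtagtgcaTTAAGTGgtgttgtaaa
The first core lies 23 to 17 bases before the upstream start site, and the second 163 to 157 bases before a start site inside the gene. Such a match of letters is a description of the window and no evidence of binding.

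*Pou4f1*, which red nucleus neurons express, and its relative *Pou4f2* were compared next. Their RNA was measured in the whole dissected midbrain and was not assigned to the red nucleus. *Pou4f1* was at 236, 285 and 304 normalized counts in the LacZ/LacZ libraries, 240, 245 and 392 in the LacZ/+ libraries and 259, 314 and 370 in the +/+ libraries. All groups overlapped, with column 1 lowest and column 6 highest. LacZ/LacZ over +/+ libraries had a log2 fold change of -0.18 with a standard error of 0.19 (limma, unadjusted p = 0.347), with a 95% interval of the ratio of 0.665 to 1.16. With each library left out in turn it ran from -0.32 (without column 7) to -0.059 (without column 9), and the smallest unadjusted p of the alternatives was 0.0528 in limma, without columns 4 and 7. *Pou4f2* was at 97.1, 152 and 109 in the LacZ/LacZ libraries, 137, 126 and 184 in the LacZ/+ libraries and 103, 173 and 170 in the +/+ libraries. Columns 1, 3 and 7 were low and the groups overlapped. The log2 fold change was -0.30 in LacZ/LacZ over +/+ libraries (limma, unadjusted p = 0.20) and -0.33 over LacZ/+ libraries (limma, unadjusted p = 0.169). The second ran from -0.51 (without column 2) to -0.17 (without column 6) with each library left out in turn, and had an unadjusted p under 0.05 in 2 of 21 alternatives, with total reads as a covariate (-0.42, limma, unadjusted p = 0.0427) and without columns 4 and 7 (-0.38, limma, unadjusted p = 0.0486). The first of these values was -0.54 without column 7, which had 40 *Pou4f2* reads (limma, unadjusted p = 0.0226), and -0.17 without column 1 (limma, unadjusted p = 0.515).

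*Barhl1* was the only gene of the 7 whose LacZ/LacZ and +/+ libraries did not overlap. It was at 245, 219 and 209 normalized counts in the LacZ/LacZ libraries, 316, 224 and 290 in the LacZ/+ libraries and 269, 260 and 298 in the +/+ libraries. The means were 224 ± 18.6, 277 ± 47.7 and 276 ± 19.8 (SD, n = 3). Column 5 lay among the LacZ/LacZ libraries, and the others of its genotype among or above the +/+ libraries. LacZ/LacZ over +/+ libraries had a log2 fold change of -0.30 with a standard error of 0.15, a ratio of 0.812 with a 95% interval of 0.652 to 1.01 (limma, unadjusted p = 0.0621). The exact permutation test gave p = 0.1, the smallest it can give. The log2 fold change was -0.29 over LacZ/+ libraries (limma, unadjusted p = 0.0683, or -0.44 and unadjusted p = 0.0110 without column 5) and -0.01 between LacZ/+ and +/+ libraries (limma, unadjusted p = 0.960). With only the 6 libraries of LacZ/LacZ and +/+ in the fit, the same difference of -0.30 had an unadjusted p of 0.0258 in limma.

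**Figure D4:**
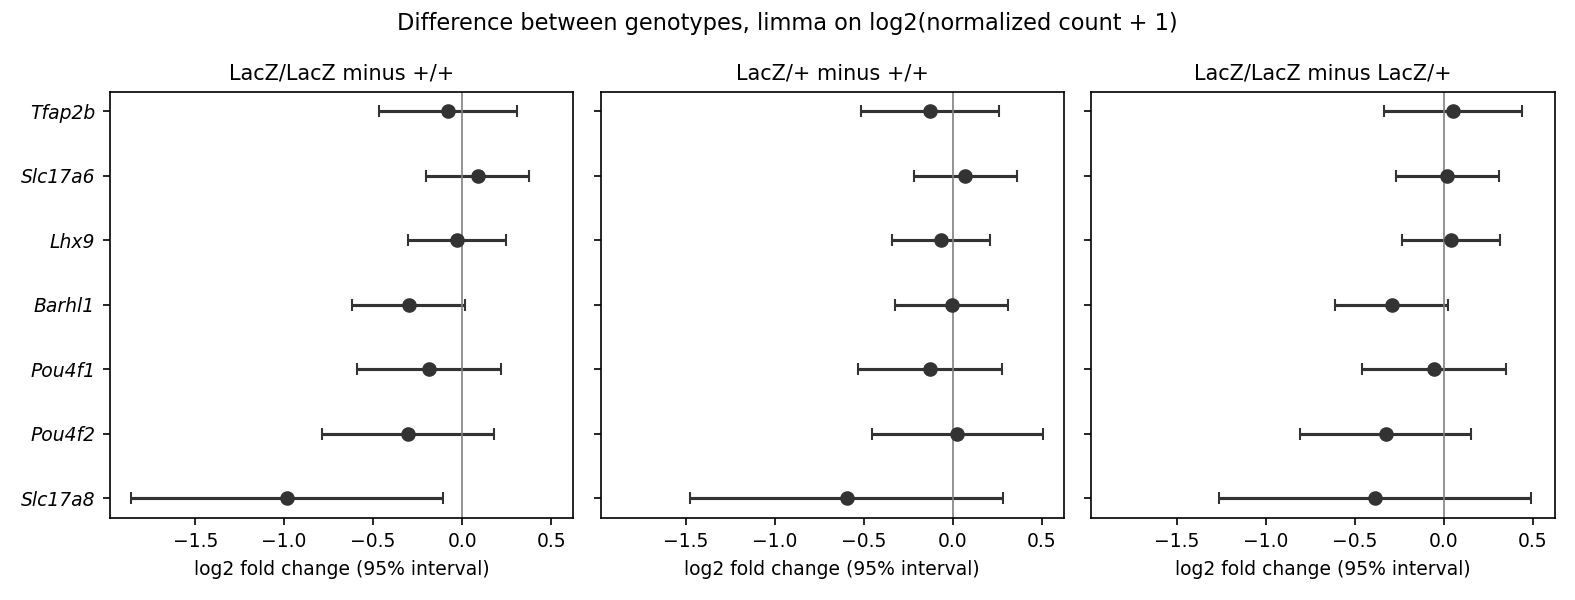
Log2 fold change (x axes) with its 95% interval from limma for the 7 genes tested, ordered by level, in the 3 comparisons of genotypes. The interval of *Slc17a8* in LacZ/LacZ minus +/+ libraries (-1.86 to -0.11) leaves out 0, and the other 20 intervals hold 0.

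*Tfap2b* and *Lhx9* had the smallest log2 fold changes of the factors between LacZ/LacZ and +/+ libraries. *Tfap2b* was at 1559, 2123 and 1743 normalized counts in the LacZ/LacZ libraries, 1258, 1745 and 2361 in the LacZ/+ libraries and 1865, 2095 and 1739 in the +/+ libraries. *Lhx9* was at 725, 789 and 884 in the LacZ/LacZ libraries, 655, 805 and 884 in the LacZ/+ libraries and 771, 832 and 838 in the +/+ libraries. All groups overlapped for both genes, with column 4 lowest for both. In LacZ/LacZ over +/+ libraries the log2 fold change was -0.08 for *Tfap2b* (95% interval -0.47 to 0.31) and -0.03 for *Lhx9* (-0.30 to 0.25). In LacZ/+ over +/+ libraries it was -0.13 and -0.07, and without columns 4 and 7, which were the shallowest, it was 0.09 and 0.02. Without column 6 the value of *Tfap2b* was -0.35 (limma, unadjusted p = 0.0496). Column 4 was the lowest library for *Slc17a6*, *Tfap2b* and *Lhx9* and the highest for *Barhl1*, and column 6 was the highest for *Slc17a6*, *Pou4f1*, *Pou4f2* and *Tfap2b*.

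Ratios of normalized count + 1 within a library depend on its size factor only through the added 1. The log2 ratio of *Slc17a6* to *Slc32a1*, the vesicular transporter of GABAergic neurons, was 1.82, 1.58 and 1.92 in the LacZ/LacZ libraries, 0.87, 2.17 and 1.70 in the LacZ/+ libraries and 1.37, 1.47 and 1.70 in the +/+ libraries. The LacZ/+ libraries held both ends of the range, column 4 the lowest and column 5 the highest. The mean was 0.26 higher in LacZ/LacZ than in +/+ libraries, which did not exceed the spread (exact permutation test, p = 0.2). The log2 ratio of *Pou4f1* to *Slc17a6* had means of -1.55 ± 0.15, -1.47 ± 0.27 and -1.28 ± 0.18 in the LacZ/LacZ, LacZ/+ and +/+ libraries (SD, n = 3), with an exact permutation p = 0.2 between the first and the last.

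The 7 genes were then compared with each other over the 9 libraries. Of 21 pairs, 5 had an unadjusted permutation p under 0.05 for Pearson's r and 0 passed after adjustment over the pairs (smallest adjusted p = 0.112, exact permutation test). The highest r was between *Slc17a6* and *Lhx9*, at 0.82 (exact permutation p = 0.00764) with a Spearman's rho of 0.77 (exact permutation p = 0.0214). It was 0.56 without columns 4 and 7, and 0.43 without the 2 libraries farthest from the median of *Slc17a6*. The last cut narrows the range of *Slc17a6*, which tends to lower r in itself, so it does not show that r rests on those libraries. *Slc17a6* and *Lhx9* varied with *Dcx*, a marker of young neurons from the pan-neuronal list, with an r of 0.93 and 0.85 over the 9 libraries. *Tfap2b* had an r of 0.70 with *Dcx*, and all are given as descriptions. *Slc17a6* had an r of -0.82 with the midbrain gene *En2*. Column 4 had the lowest *Dcx* (3779 normalized counts against 5216 to 7091 in the others) and the highest *En2* (407 against 202 to 358). *Tubb3* and *Elavl3*, also pan-neuronal, did not follow *Dcx* in column 4. *Tubb3* was highest there (6810.5), and *Elavl3* was at 2824 beside a highest value of 2894. The other pan-neuronal genes were lowest in column 4. The midbrain gene *Otx2* was also lowest there (205), unlike *En2*. The part of these markers in the correlations was not tested. *Pou4f1* and *Lhx9* had an r of 0.77 and a rho of 0.83 (exact permutation p = 0.0137 and 0.00827), and r was 0.77 without the 2 libraries farthest from the median of *Pou4f1*. *Pou4f1* and *Pou4f2* had an r of 0.74 and a rho of 0.78 (exact permutation p = 0.0258 and 0.0172), and r was 0.50 without these libraries. *Slc17a8* had an r below 0 with *Slc17a6* (-0.56), *Pou4f1* (-0.36) and *Lhx9* (-0.38), with exact permutation p of 0.111 to 0.344 and a rho of -0.47 to -0.28 (exact permutation p of 0.213 to 0.463). When each value was taken as a deviation from the mean of its genotype, *Slc17a6* and *Lhx9* had an r of 0.91. The permutation test shuffled these deviations across genotypes, which ignores the fitted means, so no pair is taken to have passed with them.

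**Figure D5:**
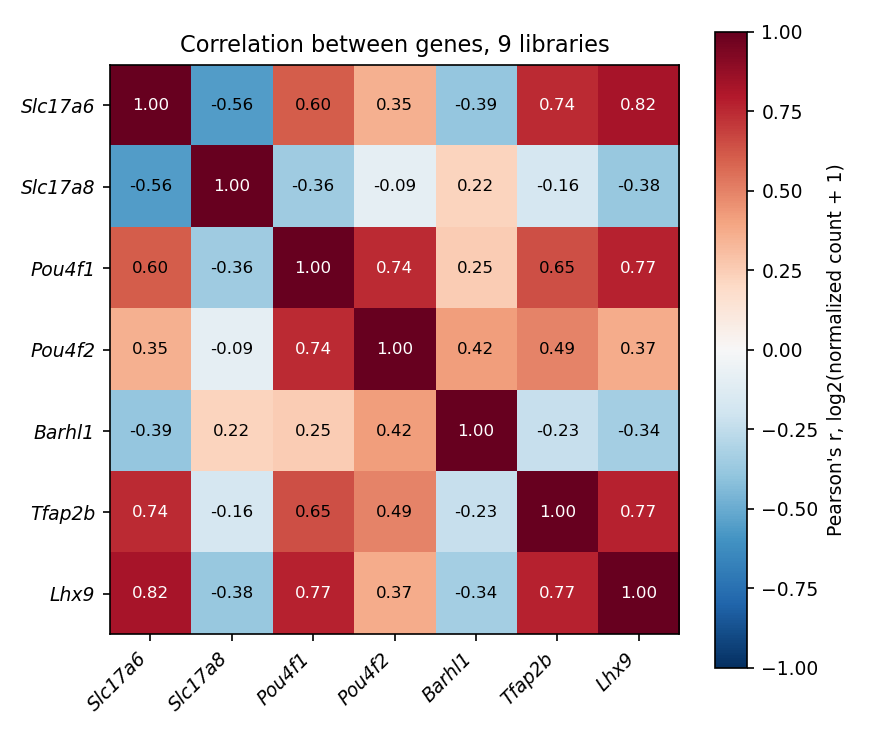
Pearson's r between the log2(normalized count + 1) values of the 7 genes tested over the 9 libraries (rows and columns are genes, red above 0 and blue below 0). *Slc17a6*, *Pou4f1*, *Tfap2b* and *Lhx9* have r of 0.60 to 0.82 with each other, and *Slc17a8* has r below 0 with the other 6 genes except *Barhl1* (0.22).

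Relatives of the 8 genes in the same families were measured beside them. Of 13 relatives, 7 were above the minimum and 0 had an unadjusted p under 0.05 in any comparison. *Barhl2* was at 151 ± 21.6 normalized counts in LacZ/LacZ and 169 ± 20.01 in +/+ libraries, a log2 fold change of -0.17 beside the -0.30 of *Barhl1*. *Pou4f3* was the lowest of the *Pou4f* genes at 35.9 ± 2.94 and 34.6 ± 9.18 normalized counts, and per length its median of 3.37 RPKM was also below those of *Pou4f1* and *Pou4f2*. *Tfap2a* was at 17.2 ± 6.04 and 23.3 ± 3.77 normalized counts (log2 fold change -0.46, limma, unadjusted p = 0.192) and *Tfap2c* at 0 in all 9 libraries. *Slc17a5*, the lysosomal sialic acid transporter of the same family, was at 44.0 to 103 normalized counts over the libraries.

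Of 15 genes that make, recycle or take up glutamate, all were tested and 0 had an unadjusted p under 0.05 between LacZ/LacZ and +/+ libraries, with a median log2 fold change of 0.02 beside 0.01 over all genes. *Slc1a2* and *Slc1a3* (glutamate uptake) had log2 fold changes of 0.11 and 0.06. In LacZ/+ over +/+ libraries 1 of 15 had an unadjusted p under 0.05, *Got1* (aspartate aminotransferase), at 0.38 (limma, unadjusted p = 0.0380).

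Of 15 transcription factors of glutamatergic differentiation or of the red nucleus area, 14 were tested. Between LacZ/LacZ and +/+ libraries 1 of 14 had an unadjusted p under 0.05, *Neurod6*, with means of 55.5 ± 16.0 and 33.9 ± 11.6 normalized counts, overlapping groups and a log2 fold change of 0.72 (limma, unadjusted p = 0.0481). *Neurod6* is also a marker of cortical neurons. The median of the 14 was 0.05, and *Nkx6-1*, *Foxa1* and *Foxa2*, factors of the ventral midbrain from which the red nucleus arises, had log2 fold changes of -0.30, -0.13 and 0.17. In the other comparisons 0 of 14 had an unadjusted p under 0.05. Of 7 genes described as activated by POU4F1, 6 were tested and 0 had an unadjusted p under 0.05 in any comparison, with log2 fold changes of -0.26 (*Nefh*) to 0.05 (*Nefl*, *Ina*) between LacZ/LacZ and +/+ libraries.

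Other cell types and areas that could move with the 8 genes were read in the same way. In LacZ/LacZ against +/+ libraries, the GABAergic (0 of 9), pan-neuronal (0 of 8), progenitor (0 of 8), thalamic and pretectal (0 of 6), rhombic lip (0 of 6), sensory ganglion (0 of 3), retinal (0 of 1) and red blood cell (0 of 7) markers tested had no unadjusted p under 0.05, and the forebrain markers had 1 of 7, *Neurod6* again. GABAergic markers summed to 3807 to 4159 normalized counts in LacZ/LacZ and 3771 to 4076 in +/+ libraries. Of 7 midbrain identity genes, 2 had an unadjusted p under 0.05, both with a lower mean in the libraries labelled LacZ/LacZ (the *Nkx2-9* reads go against the labels, and an exchange of the columns would turn these signs), *En1* (log2 fold change -0.60, limma, unadjusted p = 0.0277) and *Pax7* (-0.63, limma, unadjusted p = 0.0119). The groups did not overlap for *En1* (157 to 194 against 225 to 322 normalized counts) and *En2* (227 to 293 against 323 to 358, log2 fold change -0.44, limma, unadjusted p = 0.0502), and overlapped for the other 5. Of 4 meningeal genes tested, 1 had an unadjusted p under 0.05, *Foxc1* (-0.99, limma, unadjusted p = 0.00677), and the summed meningeal markers were at 111 to 163 in LacZ/LacZ and 153 to 216 in +/+ libraries. The part of these markers in the values of *Barhl1* and *Slc17a8* was not tested.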

How the data were processed

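RNA of E14.5 midbrains was measured in 9 libraries. Per the methods, the authors depleted ribosomal RNA, aligned paired reads with Hisat2 to GRCm38/mm10, counted them per gene with featureCounts and divided the counts by DESeq2 size factors. Versions, annotation release and strand setting are not given in the sources used here, and the labels name another RNA isolation and an mRNA protocol. The deposited signal is this normalized count per gene and library. The authors also deposited 3 tables of fold changes and p-values between genotypes, which were not used.

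The 8 genes and all lists were chosen with earlier results of these data known, and the serotonergic list after values were seen. Of 51912 identifiers, 51633 matched the GENCODE annotation of GRCm38, which gave symbols and exon lengths. Exons of the 8 genes shared 0 bases with other genes. Promoters were taken from RefSeq (GRCm38.p6). The values, as log2(normalized count + 1), were tested with limma 3.58.1 (R 4.3.3) with a mean-variance trend, 9 libraries in one fit, a mean of at least 5 (16993 genes), two-sided, with Benjamini-Hochberg adjustment over all genes tested. Fold changes on this scale understate those of low genes. Whole reads were recovered for 100% of 210686 values above 0, within a relative tolerance of 0.001. On these reads edgeR 4.0.16 (TMM, quasi-likelihood) called 421, 372 and 451 genes at an unadjusted p under 0.05 and DESeq2 1.42.0 was also run. Single values were compared by exact permutation tests, two-sided, with a smallest p of 0.1 for 3 libraries against 3. Intervals are at 95%. Per the methods, experiments in general drew on few litters, and the litter of each library is not given, so libraries may share litters and p-values measure the spread between these libraries.

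Named genes are the 8 genes, *Nkx2-9*, up to 4 genes of each list (the smallest p in *Nkx2.9*LacZ/LacZ against *Nkx2.9*+/+ or, for marker lists, the highest level) and the 3 genes most like each of the 7. Others, such as *Foxa1*, *Xist*, *Rax* and *Slc6a4*, were chosen after their values were seen. Some list genes are not reported here by themselves. Alternatives were pseudocounts of 0.5 and 5, no minimum or one of 20, only the 6 libraries compared, upper-quartile scaling, no trend, edgeR, DESeq2, a covariate (log2 *Xist*, or log2 of total reads), each library left out and, chosen after seeing the data, columns 4 and 7 left out together. The test was tried on simulated data with known changes. Figures were drawn with matplotlib 3.10.9.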

Additional observations from a re-analysis of the deposited data

How the results depend on the processing

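No paired analysis was possible because the columns carry no replicate numbers. The number of the 7 genes with an unadjusted p under 0.05 in *Nkx2.9*LacZ/LacZ against *Nkx2.9*+/+ libraries (below LacZ/LacZ and +/+) was 1. It became 2 with only the 6 libraries compared, with total reads as a covariate and without columns 4 and 7, 0 without a trend and with *Xist* as a covariate, and 0 to 2 with each library left out. For LacZ/+ against +/+ it was 0 (0 to 1 with each library left out), and for LacZ/LacZ against LacZ/+ 0, which became 1 with total reads and without columns 4 and 7 (0 to 1 with each library left out). No adjusted p of the 7 genes was under 0.05 in any of 22 settings (smallest 0.844).

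For LacZ/LacZ over +/+, *Slc17a8* stayed below 0 in 21 of 21 alternatives (-1.31 to -0.66, unadjusted p under 0.05 in 15), *Barhl1* in 21 (-0.36 to -0.24, p under 0.05 in 4) and *Pou4f2* in 21 (-0.54 to -0.17, p under 0.05 in 3). Values near 0 changed sign. For LacZ/+ over +/+, *Barhl1* was at 0.00398 with upper-quartile scaling and 0.011 with *Xist*, *Pou4f2* at -0.042 in edgeR and -0.029 in DESeq2, and without columns 4 and 7 *Tfap2b* was at 0.089, *Lhx9* at 0.015 and *Pou4f2* at -0.17. For LacZ/LacZ over LacZ/+, *Slc17a6* was at -0.00708 in DESeq2, -0.035 with total reads, -0.037 with *Xist* and -0.14 without columns 4 and 7, *Tfap2b* at -0.22 with *Xist* and -0.18 without columns 4 and 7, *Lhx9* at -0.011 and -0.082, and *Slc17a8* at 0.018 with *Xist*. The causes were not tested.

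With each library left out, LacZ/LacZ over +/+ ran from -0.20 to 0.022 for *Tfap2b* and -0.10 to 0.039 for *Lhx9*. LacZ/+ over +/+ ran from -0.35 to 0.10 for *Tfap2b*, -0.16 to 0.054 for *Lhx9*, -0.11 to 0.14 for *Barhl1*, -0.052 to 0.23 for *Slc17a6* and -0.22 to 0.15 for *Pou4f2*. LacZ/LacZ over LacZ/+ ran from -0.18 to 0.28 for *Tfap2b*, -0.082 to 0.13 for *Lhx9*, -0.14 to 0.14 for *Slc17a6* and -0.18 to 0.17 for *Pou4f1*. The log2 ratio of *Slc17a6* to *Slc32a1* ran from 0.19 to 0.36, -0.23 to 0.42 and -0.16 to 0.49 in these 3 comparisons, and that of *Pou4f1* to *Slc17a6* from -0.35 to -0.18, -0.31 to -0.05 and -0.22 to 0.034. Without columns 4 and 7 the correlation became 0.206 for *Slc17a6* and *Barhl1*, 0.274 for *Slc17a8* and *Pou4f2*, 0.282 for *Barhl1* and *Tfap2b* and 0.204 for *Barhl1* and *Lhx9*, and as deviations from genotype means -0.215 for *Slc17a8* and *Barhl1*. The pairs with an adjusted p under 0.05 went from 0 to 1 with these deviations (exact permutation test). That test shuffled the deviations across genotypes, which ignores the fitted means, so the gained pair is not taken as a call.

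Over all genes, with each library left out, those at an unadjusted p under 0.05 ran from 283 to 835, 376 to 936 and 293 to 741. Those at an unadjusted p under 0.05 went from 441, 473 and 449 to 1135, 1137 and 1132 with no minimum, 263, 242 and 288 with a minimum of 20, and 705, 852 and 972 without columns 4 and 7, and in LacZ/+ against +/+ to 283 with 6 libraries, 264 in DESeq2, 790 with total reads and 298 with *Xist*. Genes at an adjusted p under 0.05 went from 0 to 6 in LacZ/LacZ against +/+ without columns 4 and 7, and from 0 to 1 in LacZ/+ against +/+ in DESeq2. Depth limits *Slc17a8* (17 to 54 reads per library) and *Slc17a7* (0 to 2 reads) most.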

Other observations

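The genes whose values over the 9 libraries were most like those of each of the 7 genes, by Pearson's r among the 12489 genes averaging at least 20 normalized counts, are given here. Their r are descriptions over 9 libraries that share dissection and preparation, chosen as the highest of 12489. For *Slc17a6* they were *Rasa1*, *Ddx1* and *Zfp354c* (0.97 each). For *Slc17a8* they were *Secisbp2* (0.96), which encodes a selenocysteine insertion sequence binding protein, *Ak1* (0.92), which encodes an adenylate kinase, and *Inpp5j* (0.92). For *Pou4f1* they were *D130019J16Rik* (0.93), *Cmtm4* (0.90) and *Dynlt1c* (0.90), and for *Pou4f2* *Gm2464*, *Cdk5r1*, which encodes an activator of CDK5 in neurons, and *Minpp1* (0.90 each). For *Barhl1* they were *B4galt2* (0.95), *Rhob* (0.93) and *Fam122a* (0.92), for *Tfap2b* *Rbfox2* (0.95), which encodes a splicing factor, *Gatad2b* (0.94) and *Gm43668* (0.94), and for *Lhx9* *Gm6493*, *Pygo1* (0.95 each) and *Samd8* (0.94). None of the 7 genes was among the 3 most like another of them.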
